A study of Mus musculus with 10 samples.

Results

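Genes of cholesterol and fatty acid synthesis were compared between the 2 conditions of a mouse tumour RNA-Seq table. The set holds 44 genes given by symbol, each matched to the gene column of the table. It has enzymes that build sterols from acetyl-CoA, those that make, lengthen and desaturate fatty acids, and those that assemble glycerolipids. Proteins that regulate these routes or carry sterol are also included. All 44 have a row in the table of 27968 rows, and 43 of them had a valid test among the 16681 tested rows. The remaining gene, Hmgcs1, the synthase that makes the precursor of mevalonate, stood only at 2 places on an unplaced part of chromosome 13, was listed at 0 in both conditions and was not tested. How reads of a gene with 2 placements were assigned is not known here, so that this 0 cannot be read as absence of its transcript.

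The 5 tumours were sequenced as 10 samples with 2 lanes per library. They came from C57BL/6 mouse embryonic fibroblasts (MEFs) carrying RAS and the dominant-negative p53 construct DNP53, injected beneath the skin of immune compromised mice. The title of the authors' deposited RNA-Seq analysis names this RAS as RAS-G12V. One group of 3 tumours (lines 12 and 14, the latter used for 2 of them) had Tagged-Cyclin D1 and the other group of 2 tumours (lines 18 and 25) had Cyclin D1 without the tag, so that line and tag cannot be told apart. Both groups received HA-siRNA by the rectal route in 5 doses a day once a tumour had grown to 500 mm3, and were sampled 30 minutes after the final dose; an untreated group was not analysed here. The authors' deposited table gives 1 abundance per gene, read as FPKM (fragments scaled by transcript length and library size), for each of C1 and C2, and does not say which is the tagged group, so every direction here is C2 relative to C1 and all FPKM values are the authors' own. With no value per tumour there is no SD or n, the depth is unknown, and it is not stated whether lanes or tumours were the replicates behind the authors' p and q.

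Cells make both lipid classes from cytosolic acetyl-CoA. Sterol synthesis runs through mevalonate, isoprenoid units and squalene, and fatty acid synthesis through malonyl-CoA and the multifunctional fatty acid synthase. Both routes answer to the SREBP transcription factors, which SCAP carries out of the endoplasmic reticulum when sterols are low and which INSIG proteins hold back there when sterols are high. In mouse liver the product of Srebf2 acts mainly on sterol genes and that of Srebf1 mainly on fatty acid genes. A tumour is a mixture of cells, and fewer cells of a type and less RNA per cell cannot be told apart in these values.

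Several fatty acid synthesis genes rose in C2, while most of the sterol synthesis genes were not called. At q under 0.05 in the authors' deposited table, 9 of the 43 tested genes (20.9%) were called higher in C2, against 4.20% of all tested rows and 4.93% of named rows with at least 1 FPKM in a condition, a minimum that all 43 genes passed. None (0) was called lower, against 2.92% of all tested rows. Of the 9, 7 were among the 15 fatty acid genes (enzymes and the lipogenic protein gene Thrsp) and 1 was among the 17 tested sterol enzymes, the other being the regulator Srebf1. The median log2 ratio was 0.68 for the fatty acid genes and 0.18 for the sterol enzymes, beside 0.05 for all tested rows; the difference between these medians was not tested.

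A higher value in C2 was seen for 37 of the 43 genes (86.0%), against 54.4% of all tested rows, and the median log2 ratio over the 43 genes was 0.34. Mvd is counted as higher by its more abundant row, while another row of Mvd had a lower value in C2. For 3 genes the value is that of a row joined with other genes. At an unadjusted p under 0.05 in the authors' deposited table, 12 genes were higher (27.9%, against 9.42% of all tested rows) and 1 was lower (2.33%, against 7.71%). The calls lie close to the threshold: at q under 0.01 only Fasn and Scd1 were called, 4.65% of the genes against 2.64% of all tested rows. Just inside the threshold of 0.05 stood Scd2 (q = 0.0470), Lss (q = 0.0488) and Elovl7 (q = 0.0499) in the authors' deposited table. The next genes by p, which were not called, were Sqle (q = 0.0859), Acly (q = 0.138) and Hsd17b7 (q = 0.179 in the authors' deposited table). Of these Hsd17b7 alone was lower in C2.

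**Figure D1:**
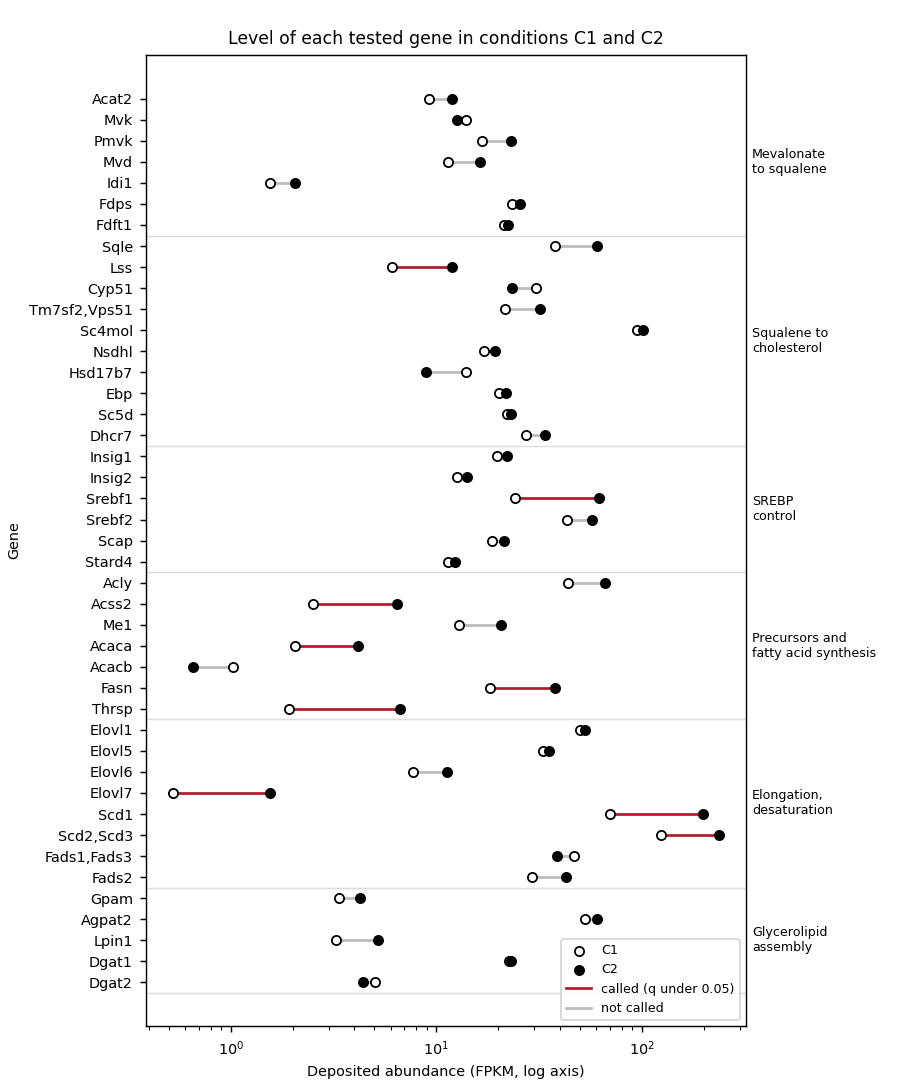
Deposited abundance (FPKM, log axis) of the 43 tested genes in C1 (open circles) and C2 (filled circles), grouped by role, with red lines for genes at q under 0.05 and no error bars because each condition has 1 value. The 9 red lines all run to higher C2 values, from Elovl7 at 0.524 and 1.55 FPKM to the joined row of Scd2 and Scd3 at 124 and 238 FPKM.

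In the group for sterol sensing and SREBP control, which includes the sterol carrier Stard4, Srebf1 rose and the other 5 genes were not called. Srebf1, which encodes SREBP-1, stood at 24.3 in C1 and 61.7 FPKM in C2, a 2.54-fold rise (log2 ratio 1.35, p = 0.00235, q = 0.0364 in the authors' deposited table; chromosome 11, 59918514 to 60034106, MGSCv37). That interval also holds 1 other row, and the table has 1 row for Srebf1, so the transcripts that start at its different promoters are not separated. Srebf2, which encodes SREBP-2, was at 43.4 and 57.3 FPKM (log2 ratio 0.40, q = 0.520 in the authors' deposited table). On the FPKM scale the level of Srebf2 was above that of Srebf1 in C1 and below it in C2.

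Scap, the escort protein of the SREBPs, was at 18.6 in C1 and 21.3 FPKM in C2 (q = 0.826 in the authors' deposited table). Insig1 was at 19.9 and 22.2 FPKM (log2 ratio 0.16) and Insig2 at 12.7 and 14.2 FPKM (log2 ratio 0.17), neither of them called. Insig1 is itself a sterol-responsive SREBP target in mammalian cells. Stard4, a carrier that moves cholesterol between membranes, was at 11.4 and 12.3 FPKM (log2 ratio 0.11, q = 0.934 in the authors' deposited table). All 6 genes of this group had higher values in C2, as did 54.4% of all tested rows, and 5 of the 6 by at most 0.40 on the log2 scale.

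Of the 7 genes for precursors and fatty acid synthesis, 4 rose and 0 fell, with a median log2 ratio of 1.02. Fasn, the fatty acid synthase that builds palmitate, went from 18.2 in C1 to 37.9 FPKM in C2, a 2.08-fold rise (log2 ratio 1.06; chromosome 11, 120667271 to 120686457, MGSCv37). Its p of 5e-05 (q = 0.00167) is the smallest the authors' deposited table contains, a value it shares with many other rows (500 in all). Acaca, the acetyl-CoA carboxylase that supplies malonyl-CoA for synthesis, went from 2.05 to 4.16 FPKM (log2 ratio 1.02, q = 0.0385 in the authors' deposited table; chromosome 11, 83993353 to 84215153). Its relative Acacb, whose product is tied to the control of fatty acid oxidation at mitochondria, was at 1.03 and 0.656 FPKM (log2 ratio -0.65, q = 0.531 in the authors' deposited table), the only one of the 7 with a lower value in C2. Whether Acaca and Acacb differ from each other in response was not tested.

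Acetyl-CoA for these reactions comes from citrate through Acly and from acetate through Acss2. Acss2 rose 2.57-fold, from 2.52 to 6.47 FPKM (log2 ratio 1.36, q = 0.0320 in the authors' deposited table; chromosome 2, 155343778 to 155388479). The interval of Acss2 also holds 1 other row. Acly was more abundant at 43.7 in C1 and 66.7 FPKM in C2, with a log2 ratio of 0.61 (p = 0.0156 in the authors' deposited table) that was not called. Me1, the malic enzyme that yields NADPH in the cytosol, was at 12.9 and 20.7 FPKM (log2 ratio 0.68, p = 0.0304, q = 0.218 in the authors' deposited table) and was not called either. Thrsp, a small protein induced by thyroid hormone and by feeding in mouse liver and linked there to lipogenesis, had the highest ratio of all 43 genes. It went from 1.93 to 6.68 FPKM, a 3.45-fold rise (log2 ratio 1.79, q = 0.0285 in the authors' deposited table; chromosome 7, 104561466 to 104566020).

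**Figure D2:**
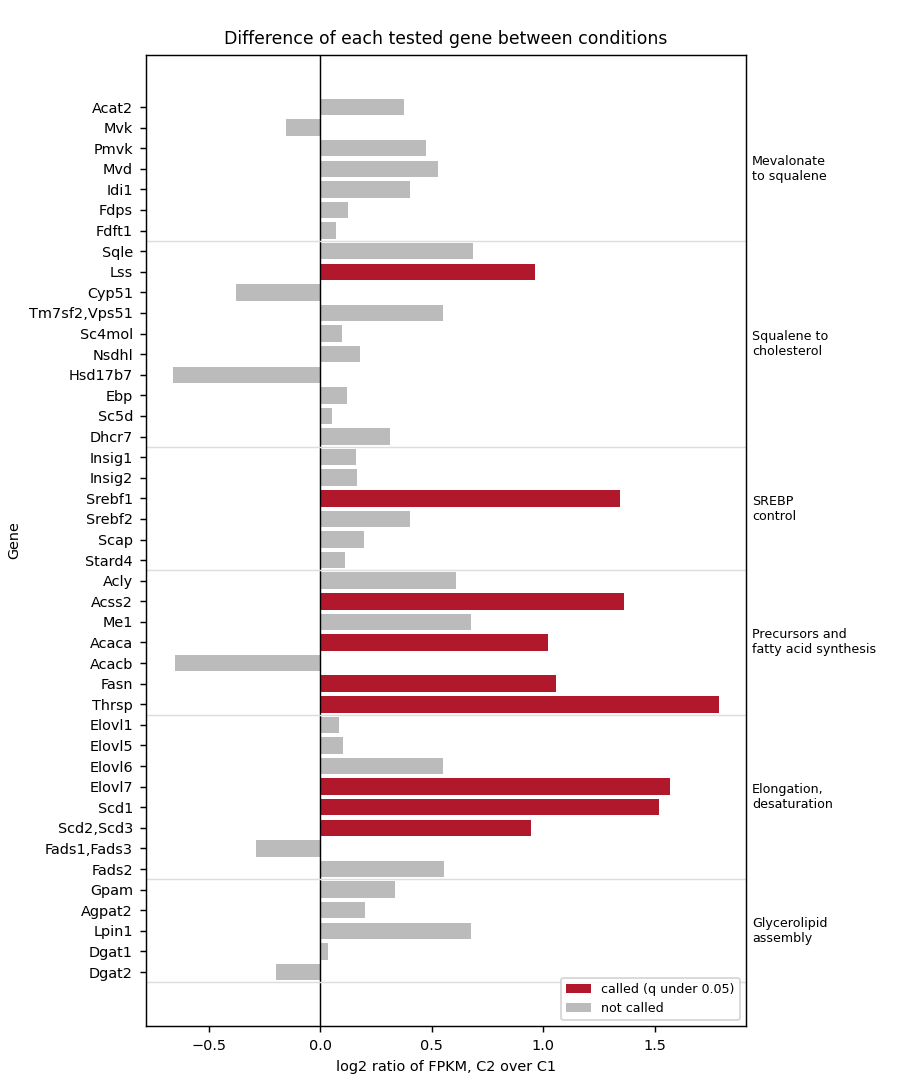
The log2 ratio of FPKM, C2 over C1, of the 43 tested genes in pathway order, with red bars for genes at q under 0.05. Red bars gather in the 2 fatty acid groups, 4 of 7 and 3 of 8 genes, against 0 of 7 and 1 of 10 in the 2 sterol groups and 0 of 5 in glycerolipid assembly.

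The promoters of 5 genes are shown because SREBPs act with partner factors that bind close to gene starts, among them NF-Y, which binds the CCAAT box: the called genes Fasn, Acss2, Thrsp and Lss, and Mvk, a sterol gene that was not called. They were chosen because they hold the CCAAT letters. Of the 9 called genes 5 hold them in a window, these 4 and Srebf1, while Acaca and Elovl7 do not and Scd1 and Scd2 were not matched to a window. Each run is the 250 bases before the RefSeq gene start (GRCm38.p6, a different build from that of the expression table), 5′ to 3′ on the gene's strand. Capitals mark the letters CCAAT on either strand (ATTGG on the opposite one).
Fasn (chr11:120824548-120824797, minus strand): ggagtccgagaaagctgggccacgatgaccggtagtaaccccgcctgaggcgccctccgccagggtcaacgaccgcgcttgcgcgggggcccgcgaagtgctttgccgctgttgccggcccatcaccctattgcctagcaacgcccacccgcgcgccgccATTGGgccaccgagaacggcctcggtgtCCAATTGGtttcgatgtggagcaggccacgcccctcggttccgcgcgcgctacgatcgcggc
Acss2 (chr2:155517793-155518042, plus strand): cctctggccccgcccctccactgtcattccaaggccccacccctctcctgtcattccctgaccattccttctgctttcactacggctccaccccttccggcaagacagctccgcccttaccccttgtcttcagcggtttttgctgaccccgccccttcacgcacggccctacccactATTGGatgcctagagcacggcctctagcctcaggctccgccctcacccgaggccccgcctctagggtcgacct
Thrsp (chr7:97417551-97417800, minus strand): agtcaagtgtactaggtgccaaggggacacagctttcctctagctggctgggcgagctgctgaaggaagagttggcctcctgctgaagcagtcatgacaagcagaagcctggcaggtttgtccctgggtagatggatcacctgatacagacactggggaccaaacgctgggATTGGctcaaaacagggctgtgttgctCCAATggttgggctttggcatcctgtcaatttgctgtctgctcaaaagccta
Lss (chr10:76531355-76531604, plus strand): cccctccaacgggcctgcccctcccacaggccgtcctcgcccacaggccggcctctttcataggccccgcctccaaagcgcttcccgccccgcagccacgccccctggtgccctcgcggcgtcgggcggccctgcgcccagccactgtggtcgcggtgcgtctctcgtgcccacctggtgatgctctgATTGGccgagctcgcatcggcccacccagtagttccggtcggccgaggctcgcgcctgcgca
Mvk (chr5:114444019-114444268, plus strand): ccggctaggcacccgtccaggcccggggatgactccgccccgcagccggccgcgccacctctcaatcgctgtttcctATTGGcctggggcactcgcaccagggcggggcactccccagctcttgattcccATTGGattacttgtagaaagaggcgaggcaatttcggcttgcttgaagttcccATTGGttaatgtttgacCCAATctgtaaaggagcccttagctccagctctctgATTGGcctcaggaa

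In these stretches the CCAAT letters begin 90, 62 and 59 bases before the start of Fasn, where the last 2 overlap on opposite strands, and 73 bases before that of Acss2. They begin 79 and 52 bases before the start of Thrsp, 62 before that of Lss, and at 5 places in Mvk, from 173 to 14 bases before the start. RefSeq's table matched 35 of the 44 genes, with 46 windows of 250 bases before to 50 after a start. CCAAT was in 28 of these windows (60.9%), against 37.4% of all 32851 windows of that length. The latter belong to 27025 genes, were not limited to expressed genes, and can be several per gene. Whether the share is particular to the synthesis genes was not tested. CCAAT was in 14 of 18 windows of sterol enzymes and in 8 of 14 of fatty acid genes, and both called and uncalled genes held it.

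Other motifs were searched on both strands of the same windows, beside the same background, which was not limited to expressed genes. The GC box GGGCGG was in 32 of the 46 (69.6%, against 35.7% of all windows) and the E-box CACGTG in 7 (15.2%, against 7.15%). The sterol element TCACNCCAC was in 1, that of Hmgcs1 (1.24% of all windows), and the related form TCANCCCAC in 2, those of Hmgcs1 and Elovl5 (1.38% of all windows); in Hmgcs1 both are the same stretch. None (0) of the 9 windows, which belong to 7 of the called genes, held either sterol form or the E-box, which says only that these letters are absent from these windows.

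Of the 8 elongation and desaturation genes 3 rose, and 2 of their rows were the most abundant of the set in C2. Scd1, the stearoyl-CoA desaturase that puts the first double bond into saturated fatty acids, went from 69.9 to 199.97 FPKM (2.86-fold, log2 ratio 1.52, p = 0.0003, q = 0.00748 in the authors' deposited table; chromosome 19, 44468939 to 44482199). Its neighbour Scd2 shares a joined row with Scd3, which went from 124 to 238 FPKM (log2 ratio 0.94, q = 0.0470 in the authors' deposited table; chromosome 19, 44277777 to 44381352). The values of Scd2 and Scd3 cannot be told apart in that row, and the desaturase genes are close copies whose reads the counting may have split. In C2 the Scd1 row stood above 97.4% of the named tested rows. The 8 genes together summed to 361 in C1 and 620 FPKM in C2, most of it from the 2 desaturase rows.

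Elovl7, an elongase of long-chain fatty acids, rose 2.96-fold, from 0.524 to 1.55 FPKM (log2 ratio 1.57, q = 0.0499 in the authors' deposited table; chromosome 13, 109004597 to 109077301). Its level is low, and with a pseudocount of 1 FPKM the log2 ratio was 0.74. The other elongases were not called. Elovl6, which lengthens palmitate to stearate, was at 7.72 and 11.3 FPKM (log2 ratio 0.55, q = 0.301 in the authors' deposited table). Elovl1 and Elovl5, which act on longer or polyunsaturated chains, were at 49.9 and 52.8 FPKM and at 33.0 and 35.4 FPKM, with log2 ratios of 0.08 and 0.10.

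The desaturases of polyunsaturated fatty acids had ratios of either sign and were not called. Fads2, the first of them in the route, was at 29.2 and 42.9 FPKM (log2 ratio 0.55, q = 0.727 in the authors' deposited table). Fads1 is joined with Fads3 in 1 row at 47.1 and 38.5 FPKM (log2 ratio -0.29, q = 0.795 in the authors' deposited table). Both rows carry the same interval on chromosome 19, where these genes adjoin.

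**Figure D3:**
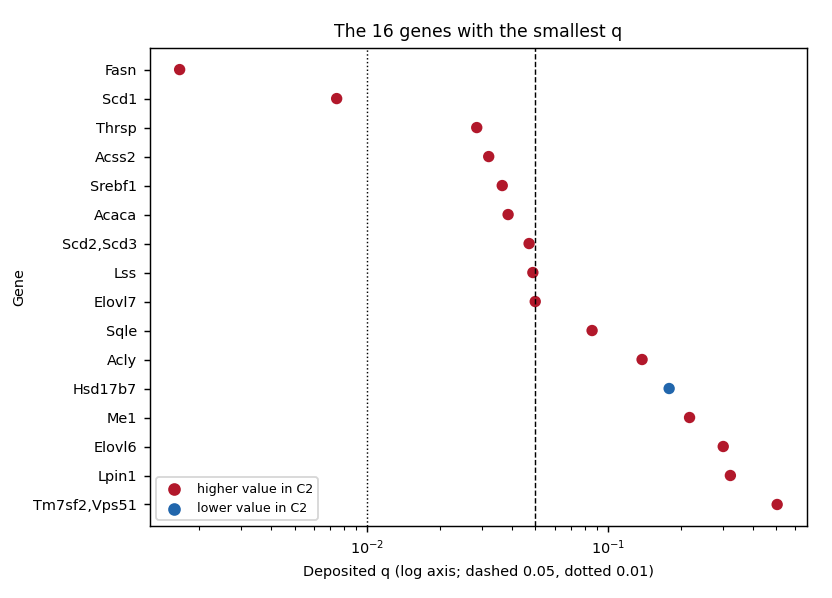
Deposited q (log axis) of the 16 tested genes with the smallest q, red for a higher and blue for a lower value in C2, with lines at 0.05 (dashed) and 0.01 (dotted). Fasn and Scd1 lie left of both lines, and the other 7 called genes lie between 0.0285 and 0.0499, near the dashed line.

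The first stretch of sterol synthesis, from acetyl-CoA to squalene, had 0 calls among 7 tested genes. Acat2, the thiolase that joins acetyl-CoA units in the cytosol, was at 9.21 and 11.9 FPKM (log2 ratio 0.37). The kinases Mvk and Pmvk, which phosphorylate mevalonate, were at 14.0 and 12.6 FPKM and at 16.7 and 23.3 FPKM (log2 ratios -0.15 and 0.48). Mvd, the decarboxylase after them, has 2 rows on the same interval, at 11.4 and 16.4 FPKM and at 10.5 and 6.92 FPKM, with log2 ratios of 0.53 and -0.61, and neither was called (q = 0.515 and 0.846 in the authors' deposited table). Its direction is therefore not settled by the table.

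Idi1, the isomerase of the isoprenoid unit, was the least abundant tested enzyme of this stretch at 1.55 and 2.05 FPKM (log2 ratio 0.40). Fdps, which makes farnesyl pyrophosphate, was at 23.4 and 25.5 FPKM (log2 ratio 0.12, q = 0.940 in the authors' deposited table). Fdft1, the squalene synthase that commits farnesyl units to sterols, was at 21.3 and 22.4 FPKM (log2 ratio 0.07, q = 0.996 in the authors' deposited table). The stretch summed to 97.6 in C1 and 114 FPKM in C2.

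Of the 10 listed enzymes from squalene to cholesterol, Lss rose and 9 were not called. Lss, the lanosterol synthase that closes the sterol rings, went from 6.12 to 11.9 FPKM (1.95-fold, log2 ratio 0.96, p = 0.00345, q = 0.0488 in the authors' deposited table; chromosome 10, 75994371 to 76024971). The interval of Lss also holds 1 other row. Sqle, the squalene epoxidase acting just before Lss, was at 37.8 and 60.9 FPKM (log2 ratio 0.69, p = 0.0076 in the authors' deposited table). Hsd17b7, a ketosteroid reductase of the later route, was at 14.0 and 8.88 FPKM, the lowest log2 ratio of the 43 genes at -0.66 (p = 0.0227 in the authors' deposited table). Cyp51, the demethylase that acts on the product of Lss, was at 30.5 and 23.5 FPKM (log2 ratio -0.38, q = 0.667 in the authors' deposited table).

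The other listed enzymes of this stretch were not called. Sc4mol, a methyl sterol oxidase now named Msmo1, was the most abundant of the listed sterol enzymes at 94.7 and 101 FPKM (log2 ratio 0.10, q = 0.940 in the authors' deposited table). Nsdhl, which works with it in removing methyl groups, was at 17.1 and 19.3 FPKM (log2 ratio 0.18). The sterol isomerase Ebp was at 20.1 and 21.9 FPKM, the desaturase Sc5d at 22.2 and 23.1 FPKM, and the reductase Dhcr7 at 27.3 and 34.0 FPKM, with log2 ratios of 0.12, 0.06 and 0.31. Tm7sf2, a sterol reductase, is joined with Vps51 at 21.7 and 31.9 FPKM (log2 ratio 0.55, q = 0.504 in the authors' deposited table), so that its own level is unknown. For Sc5d the sign turned when ratios were centred on the median of 0.06 of tested rows with at least 1 FPKM, to -0.00092.

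**Figure D4:**
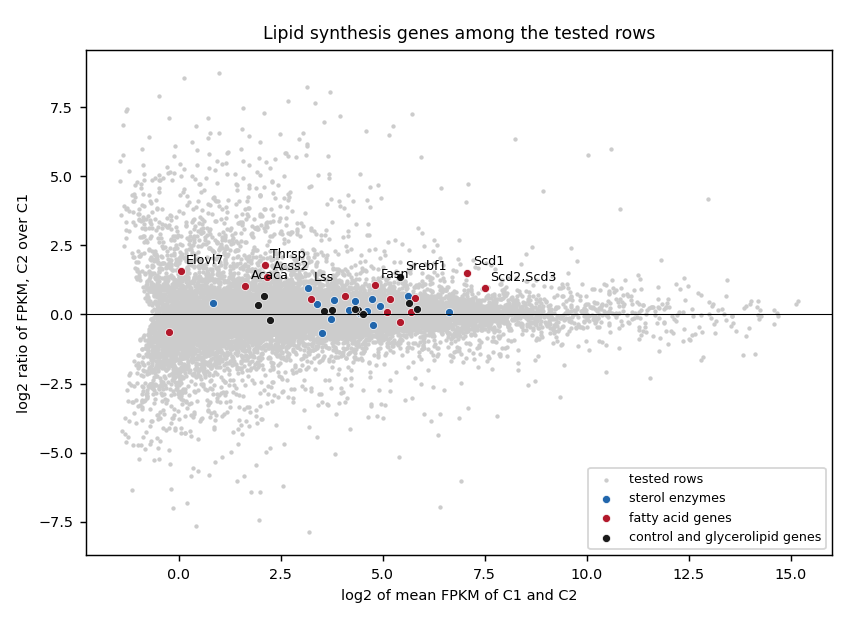
The log2 ratio of FPKM, C2 over C1, against the log2 of the mean FPKM for 16634 tested rows above 0 in both conditions (grey), with sterol enzymes in blue, fatty acid genes in red, and control and glycerolipid genes in black. The 9 labelled genes are those at q under 0.05, at ratios from 0.94 to 1.79, and the blue points other than Lss lie between -0.66 and 0.69.

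None (0) of the 5 glycerolipid assembly genes was called. Gpam, the mitochondrial acyltransferase of the first step, was at 3.39 and 4.27 FPKM (log2 ratio 0.34). Agpat2, the acyltransferase that follows, was at 52.9 and 60.9 FPKM (log2 ratio 0.20). Lpin1, a phosphatidate phosphatase encoded on chromosome 12, was at 3.26 and 5.21 FPKM (log2 ratio 0.68, p = 0.0592 in the authors' deposited table). Dgat1 and Dgat2, which add the last acyl chain of triglycerides, were at 22.7 and 23.2 FPKM and at 5.07 and 4.41 FPKM (log2 ratios 0.03 and -0.20), and the sign of Dgat1 turned with the same centring, to -0.02.

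Over the other lipid lists together, 2 of 81 tested genes were called higher (2.47%, against 4.20% of all tested rows) and 4 lower (4.94%, against 2.92%), shares near those of all tested rows. Of 7 genes for SREBP processing and sterol-regulated degradation 0 were called (median log2 ratio 0.02), and the most abundant, the protease gene Mbtps1, was at 82.8 and 68.7 FPKM. Of 15 genes of sterol transport, storage and efflux 0 were called higher and 1 lower (median 0.31). The exception was Abca1, the cholesterol efflux pump, which fell from 29.0 to 10.9 FPKM (log2 ratio -1.41, q = 0.00167 in the authors' deposited table). Abca1 and Srebf1 are both known targets of the liver X receptors. The receptor genes Nr1h2 and Nr1h3 were at 35.6 and 44.3 FPKM and at 3.41 and 3.68 FPKM, neither called. A part of these receptors in the values of Abca1 or Srebf1 was not tested.

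Of 9 genes of the isoprenoid branches 1 was called higher and 0 lower (median 0.21). It was Fntb, a subunit of the farnesyltransferase that modifies RAS proteins, which rose from 8.70 to 20.1 FPKM (log2 ratio 1.21, q = 0.00421 in the authors' deposited table), while its partner subunit Fnta was at 34.2 and 31.9 FPKM (log2 ratio -0.10). None (0) of the 8 tested genes for carbon and NADPH supply was called (median 0.38), and the most abundant, Pgd of the pentose phosphate route, was at 85.1 and 113 FPKM.

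The fatty acid use lists held 4 of these calls, and none (0) of the 4 holds at q under 0.01 in the authors' deposited table. Of 12 genes for uptake, activation and binding, Acsl5, an acyl-CoA synthetase, rose from 28.7 to 50.4 FPKM (log2 ratio 0.81, q = 0.0454 in the authors' deposited table) and Cd36, a fatty acid receptor, fell from 15.8 to 6.95 FPKM (log2 ratio -1.19, q = 0.0218), with a median of -0.09. Of 16 tested genes on the oxidation list 2 were called lower and 0 higher, against 2.92% and 4.20% of all tested rows (median -0.07). They were Cpt1a, the gatekeeper of mitochondrial fatty acid import, from 43.6 to 23.9 FPKM (log2 ratio -0.87, q = 0.0131), and its relative Cpt1c, from 24.5 to 10.5 FPKM (log2 ratio -1.22, q = 0.0146 in the authors' deposited table). Of 14 tested genes of lipid droplets, lipolysis and other glycerolipid enzymes 0 were called (median 0.20), and the most abundant, the droplet coat gene Plin2, was at 158 and 191 FPKM.

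Markers of other cell types were read beside these genes, in lists chosen with earlier results of these data known. Of all tested rows 4.20% were called higher and 2.92% lower. Of 12 adipocyte markers 9 were tested, 2 were called lower (Lpl and Car3, log2 ratios -1.22 and -0.94) and 0 higher. The list summed to 403 in C1 and 264 FPKM in C2. Most of each sum came from Fabp4, at 258 and 167 FPKM, which was not called. The defining marker Adipoq was at 8.55 and 5.73 FPKM, and Lep and Plin1 were under 1 FPKM in both conditions. Of the sebaceous markers Awat1, Mc5r and Elovl3 were under 1 FPKM in both conditions and not tested, with Awat1 listed at 0 in C2, and Awat2 was at 0.337 and 1.09 FPKM without a call; the list's only called row is that of Scd2 and Scd3.

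Most luminal epithelial markers also rose, with 7 of 9 called higher and 0 lower, against 4.20% and 2.92% of all tested rows. Their median log2 ratio was 2.07, and they summed to 645 in C1 and 1130.1 FPKM in C2. Their part in the result was not tested. Among them the adhesion gene Epcam rose from 12.0 to 105 FPKM and the keratin gene Krt8 from 71.3 to 233 FPKM. Krt18 was at 515.7 and 514.3 FPKM. Krt19 is joined with Krt13 and Krt17 in a row at 33.0 and 136 FPKM, which was not called. The other called markers were Cldn3, Cldn4, Cldn7 and Elf5, with log2 ratios of 4.15, 2.07, 5.73 and 5.10, and Spint1, at 7.54 and 22.9 FPKM. Of 6 fibroblast markers 3 were called lower and 0 higher, against 2.92% and 4.20% of all tested rows (median -1.07). The list summed to 3156 in C1 and 1053 FPKM in C2. Thy1 fell from 1154 to 147 FPKM, Lum from 255 to 68.2 FPKM and Pdgfra from 50.9 to 24.7 FPKM. Col1a2, Col3a1 and Pdgfrb also had lower values in C2 but were not called. Whether these transcripts came from the injected fibroblasts or from host cells cannot be told from the values. Of 6 macrophage markers 1 was called higher, Cd14 (log2 ratio 1.13), with a median of 0.07.

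**Figure D5:**
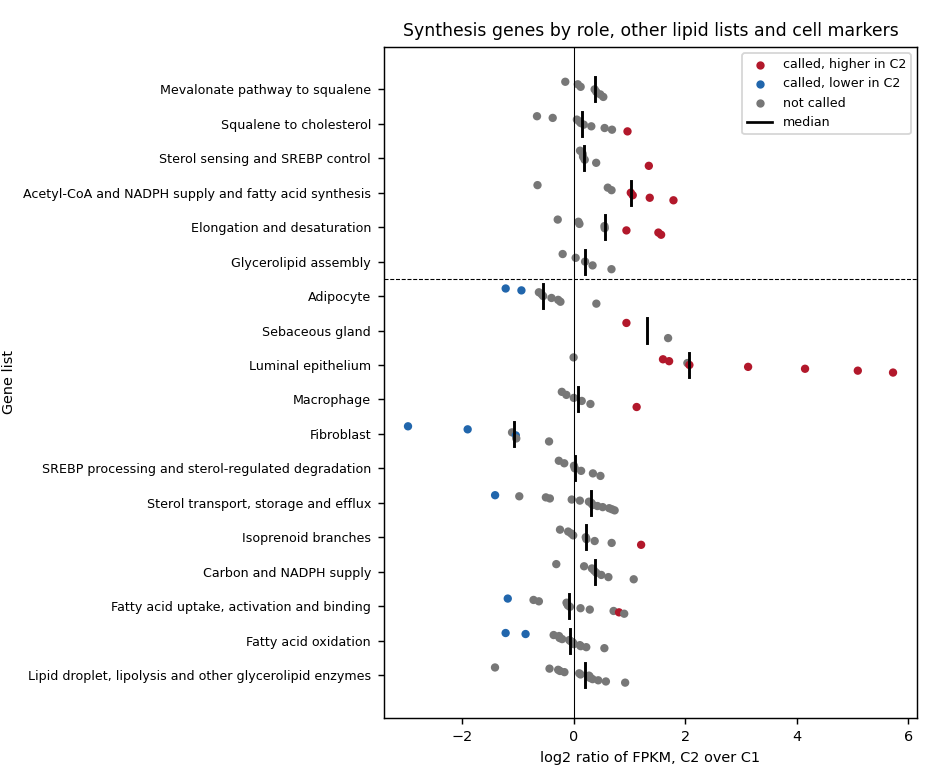
The log2 ratio of FPKM, C2 over C1, of each tested gene (points) and the median (black bars) for the 6 roles of synthesis genes above the dashed line and the cell marker and other lipid lists below it. Precursor and fatty acid synthesis genes have the highest median of the 6 roles (1.02), oxidation genes centre near 0 (-0.07), luminal epithelial markers lie higher (2.07) and fibroblast markers lower (-1.07).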

How the data were processed

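Messenger RNA libraries, single reads of 100 bases, were mapped to MGSCv37 with Bowtie and TopHat and compared with Cufflinks, per the series' design text; Cufflinks 2.1.1, TopHat2 2.0.8b and CASAVA 1.8.2 are given in the notes on processing from the submitters. The authors deposited 1 value per condition, taken as FPKM from the Cuffdiff layout since the header names no unit, with the log2 fold, a test score, p-values and q-values over tested rows. GO p-values are those the authors deposited from BiNGO. Here the ratio is log2 of C2 over C1 with no pseudocount, and called means q under 0.05. The deposited log2 fold of the 43 genes differed from it by at most 6.82e-06. A symbol with several rows was represented by the tested row with the highest mean, and rows that join genes are named for the 44 genes. In the other lists only the joined rows of Scd3 and Krt19 are named. The genes and lists were chosen with earlier results of these data known. All 44 are described, and of other lists called genes or the most abundant one. Added after their values were seen were Fnta, Nr1h2, Nr1h3, Krt18, Krt19, Col1a2, Col3a1, Pdgfrb and the adipocyte and sebaceous markers without a call. Some genes of these routes are not reported here. The labels number the tumours as replicates, but no test of tumours could be made. Whether lanes or tumours were the replicates behind the authors' p and q is not stated. Adjustment and motif code was tested on simulated data. Work used matplotlib 3.10.9, SciPy 1.17.1, pandas 2.3.3, numpy 2.4.6 and Python 3.11.15.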

Additional observations from a re-analysis of the deposited data

How the results depend on the processing

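No paired analysis was possible because no tumour has values of its own here; for that reason leaving out each replicate and averaging the tumours of line 14 were not run. Genes called higher numbered 9, and 2 at q under 0.01, 1 under a Benjamini-Yekutieli adjustment (Fasn), 12 at an unadjusted p, 7 at 5 FPKM or with a 2-fold minimum, 8 without joined rows and 9 at 1 FPKM. Called lower there were 0, and 1 at an unadjusted p (Hsd17b7). The median log2 ratio over the 43 genes moved by less than 0.1 under both pseudocounts, re-centring and leaving out joined rows. Re-centring turned the sign of Sc5d (-0.00092) and Dgat1 (-0.0229), and pseudocounts turned no sign (0). At q under 0.01 the uptake, activation and binding list had 0 called higher and 0 lower, and the oxidation list had 0 lower. The stricter thresholds pass fewer genes by construction, and the depth behind each value is unknown.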

Other observations

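The authors' deposited GO table, which tested genes called in either direction against the whole annotation, holds several lipid terms. For lipid metabolic process the authors' deposited table lists 60 genes among 701 (adjusted p = 6.16e-09 by its exact hypergeometric test), 7 of them among the 44 synthesis genes. For lipid biosynthetic process the authors' deposited table lists 23 among 295 (adjusted p = 0.00217, same exact test), including Acaca, Elovl7, Fasn, Lss, Scd1 and Scd2. For fatty acid metabolic process the authors' deposited table lists 17 among 200 (adjusted p = 0.00436, same exact test), 5 of them among the 44. For cholesterol metabolic process the authors' deposited table lists 9 among 72 (adjusted p = 0.00552, same exact test), of which 2, Lss and Srebf1, are among the 44. The called genes listed for lipid catabolic process (14 genes) and for cholesterol efflux (3 genes) include 0 of the 44.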
